A study of Mus musculus with 126 samples.

Results

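The 9 genes described here, Fgf5, Otx2, Pou3f1, Sox3, Zic2, Foxd3, Lin28a, Lin28b and Utf1, are used as markers of the exit of mouse pluripotent cells from the naive state. They were taken by gene symbol from a deposited count table of 23420 genes by a rule that uses no measured value. The 9 genes were, however, chosen with earlier results of these data known. All 9 passed the filter on low counts that left 15822 genes for testing.

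The study set methylation of DNA beside acetylation of histones as influences on where transcription factors bind, and its 8 RNA-seq libraries were used here. Mouse embryonic stem cells of the J1 strain were either wild type (WT) or carried homozygous deletions of Dnmt1, Dnmt3a and Dnmt3b (triple knockout, TKO), which removes the enzymes that write and maintain DNA methylation. Cells of both genotypes grew on gelatin in serum with leukaemia inhibitory factor and received for 36 h either Trichostatin A (TSA), an inhibitor of histone deacetylases, at a labelled 5 ng/µl, or 0.0033% DMSO as solvent control. The groups were thus WT DMSO, WT TSA, TKO DMSO and TKO TSA, each with 2 libraries that the series calls biological replicates. The labels name no separate TKO clones, so the deletions and other properties of the TKO cells cannot be told apart.

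Pluripotent cells are thought to pass from a naive state, which serum and leukaemia inhibitory factor largely sustain, through a formative state, in which they become competent for lineage choice, to a primed state like that of the epiblast just before gastrulation. Otx2 and Pou3f1 (Oct6) are transcription factors that redirect enhancer use on the way, with Foxd3, Zic2 and Sox3 acting beside them in the epiblast and the early neural plate. Fgf5 is the secreted growth factor whose transcript is the classical label of the post-implantation epiblast. Lin28a and Lin28b are RNA-binding proteins that block the maturation of let-7 microRNAs, and Utf1 is a chromatin-bound protein of undifferentiated cells.

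Total counts were between 13280631 and 15542527 per library, so that 3 counts corresponded to 0.193 to 0.226 CPM (a gene's reads as a share of the counted reads of its library, on the usual scale), a limit that covers counting error only. Levels below are CPM after scaling by trimmed mean of M values. Dnmt1 averaged 446 CPM in WT DMSO and 130 CPM in TKO DMSO, Dnmt3a 211 and 26.4 CPM, and Dnmt3b 592 and 44.9 CPM, so transcripts of the deleted genes were reduced in the libraries labelled TKO. The embryonic stem cell markers Pou5f1, Sox2, Nanog, Zfp42, Sall4, Dppa5a, Tdgf1 and Fgf4 were all detected, with a summed level of 3430 to 3810 CPM in WT DMSO, 4183 to 4517 in TKO DMSO, 2025 to 2194 in WT TSA, and 2003 to 2248 in TKO TSA.

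Promoter sequences were listed by RefSeq for 6 of the 9 genes (build GRCm38.p6), and CpG pairs, the target of the deleted enzymes, are shown in capitals in the 250 bases upstream of the start for 5 genes whose listed start equals that of the count table. They are shown because these 5 range from a steep loss under TSA (Foxd3) through moderate loss (Utf1, Lin28a, Lin28b) to no detected change (Fgf5). Zic2, which fell more than Foxd3 in WT (log2 -3.95 against -3.40), had no listed promoter.
Foxd3, chr4:99656049-99656298, plus strand: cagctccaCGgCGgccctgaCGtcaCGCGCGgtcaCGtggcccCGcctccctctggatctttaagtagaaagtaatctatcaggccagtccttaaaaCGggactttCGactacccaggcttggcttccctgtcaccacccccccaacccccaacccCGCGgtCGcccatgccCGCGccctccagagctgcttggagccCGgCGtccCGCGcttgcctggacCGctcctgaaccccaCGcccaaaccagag
Utf1, chr7:139943606-139943855, plus strand: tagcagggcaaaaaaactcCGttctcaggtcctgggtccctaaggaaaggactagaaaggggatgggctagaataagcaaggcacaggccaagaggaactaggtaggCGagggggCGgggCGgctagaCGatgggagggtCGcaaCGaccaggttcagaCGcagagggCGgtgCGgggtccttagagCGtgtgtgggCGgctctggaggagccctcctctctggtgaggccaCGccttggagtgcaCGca
Lin28a, chr4:134018817-134019066, minus strand: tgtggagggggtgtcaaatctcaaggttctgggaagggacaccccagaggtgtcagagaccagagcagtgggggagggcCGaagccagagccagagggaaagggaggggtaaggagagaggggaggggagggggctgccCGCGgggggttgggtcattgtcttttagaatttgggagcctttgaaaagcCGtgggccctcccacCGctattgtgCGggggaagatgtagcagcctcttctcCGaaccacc
Lin28b, chr10:45470202-45470451, minus strand: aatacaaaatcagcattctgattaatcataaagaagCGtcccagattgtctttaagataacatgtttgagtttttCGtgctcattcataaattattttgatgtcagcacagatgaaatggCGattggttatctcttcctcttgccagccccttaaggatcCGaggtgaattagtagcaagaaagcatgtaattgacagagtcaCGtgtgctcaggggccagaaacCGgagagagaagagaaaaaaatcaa
Fgf5, chr5:98253934-98254183, plus strand: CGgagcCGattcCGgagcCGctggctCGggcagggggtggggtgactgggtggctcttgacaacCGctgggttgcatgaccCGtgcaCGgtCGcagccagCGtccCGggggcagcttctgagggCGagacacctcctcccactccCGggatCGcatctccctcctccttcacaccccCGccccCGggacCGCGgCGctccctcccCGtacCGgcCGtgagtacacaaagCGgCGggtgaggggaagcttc
The Foxd3 window holds 21 CpG pairs, that of Utf1 14, Lin28a 7, Lin28b 6 and Fgf5 24, where the median over 32851 listed promoters is 6 and the quartiles are 2 and 16. The CpG-rich windows thus include both the gene with the largest fall under TSA of these 5 and the gene with no called change. The 4 starts listed for Otx2, none of which is that of the count table, had 6, 8, 14 and 9 CpG pairs.

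Exact matches to motifs of the 5 transcription factors assayed elsewhere in the series were counted on both strands of the 300-base windows that end 50 bases after the start. The SP1 motif GGGCGG occurred 4 times at Utf1 and 1 time each at Lin28a and Fgf5, and it is present in 35.7% of all listed promoters. The MAX motif CACGTG occurred 1 time each at Foxd3 and Lin28b and is present in 7.15% of all listed promoters. CCGGAAGT for GABPA (3.89% of promoters), AAGATGGC for YY1 (2.75%) and the palindromic NRF1 motif (0.971%) were not found in any of the 9 windows of these 6 genes. None of the 5 motifs contains another, overlapping matches were each counted, and a match describes letters only.

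By mean level per kilobase of exon, Lin28a, Utf1, Lin28b and Otx2 held the same order in all groups. The order of the other genes changed between groups. Lin28a was the most abundant in every group, at 219 CPM per kb in WT DMSO, 103 in WT TSA, 170 in TKO with DMSO and 87.7 in TKO with TSA. Utf1 and Lin28b followed, at 48.6 and 37.7 CPM per kb in WT DMSO, and their libraries overlapped in the other 3 groups. In WT DMSO, Otx2 (25.4 CPM per kb) lay above Zic2 (13.8) and Pou3f1 (12.5), which did not differ beyond their spread, followed by Foxd3 (10.6). Fgf5 (1.44 CPM per kb) and Sox3 (1.40) were lowest there and overlapped. In WT TSA, Foxd3 (0.994), Fgf5 (0.919) and Zic2 (0.892) lay close together and overlapped. In TKO TSA, Sox3 (4.80) lay above Zic2 (2.67), Foxd3 (1.63) and Fgf5 (0.928).

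**Figure D1:**
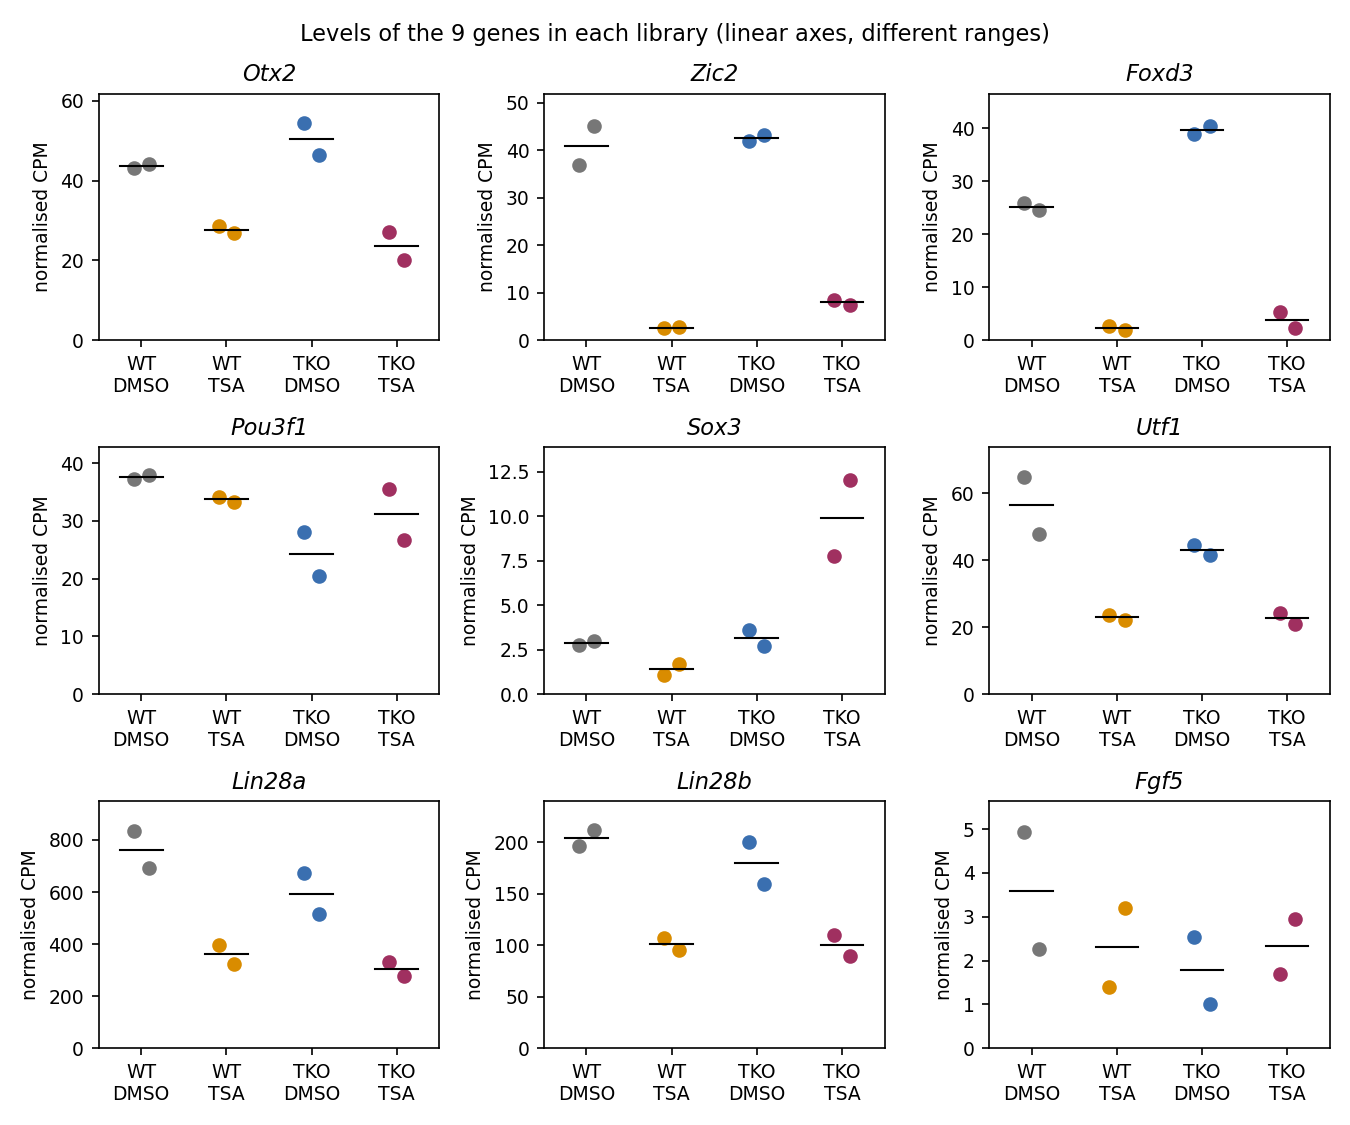
Normalised CPM of each of the 9 genes (vertical axes, linear, from 0, each with its own range) in the 8 libraries, grouped by genotype and treatment; points are libraries and bars are the means of 2. Zic2 and Foxd3 dropped to a few CPM in both TSA groups, Sox3 was highest in TKO TSA at 7.78 and 12.1 CPM, and Fgf5 overlapped between all groups.

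TSA lowered most of the genes in both genotypes. In WT cells 7 of the 9 were called lower and 0 higher, against 25.9% of all tested genes called lower and 27.0% called higher. A call means an adjusted p below 0.05 in edgeR's quasi-likelihood test with Benjamini-Hochberg adjustment over all 15822 genes. The median log2 fold change of the 9 was -1.05, beside 0.01 over all genes. In TKO cells 6 were called lower and 1 higher (Sox3), against 27.9% lower and 30.8% higher of all genes, with a median of -0.93 beside 0.04. Of the 9, Otx2, Zic2, Foxd3, Lin28a, Lin28b and Utf1 were lower in both genotypes, Sox3 was called in both with opposite signs, and Fgf5 and Pou3f1 were called in neither. Leaving out each library in turn gave 6 or 7 genes called lower in WT and 6 in TKO. In these bulk samples fewer cells of a type and less RNA per cell cannot be told apart.

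Between the genotypes in DMSO, the share of the 9 genes called was near that of all genes. There, 1 of the 9 was called lower in TKO than in WT (Pou3f1) and 0 higher, against 10.7% and 9.63% of all genes, and the median log2 difference was -0.18 beside -0.01 over all genes. In TSA, 2 were called higher in TKO (Sox3 and Zic2) and 0 lower, against 10.0% and 8.38% of all genes. With both changes set against WT DMSO, 6 were lower and Sox3 was higher, against 30.2% and 31.7% of all genes. The interaction (effect of TSA in TKO cells minus its effect in WT cells) was called for Sox3 and Zic2, both positive, and for 0 genes in the negative direction, against 0.879% and 0.468% of all genes.

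**Figure D2:**
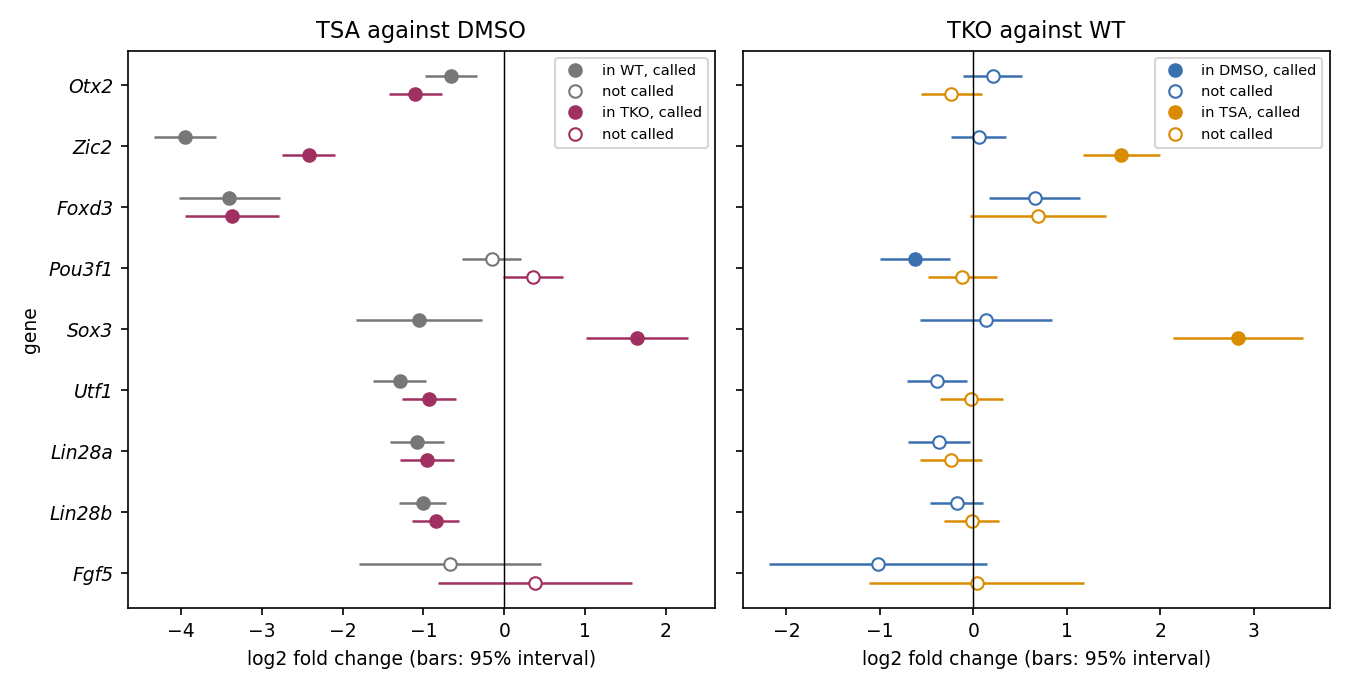
Log2 fold changes of the 9 genes (horizontal axes) for TSA against DMSO in each genotype and for TKO against WT in each treatment; bars are approximate 95% intervals, filled points passed the adjusted p of 0.05 and open points did not. Zic2 and Foxd3 lie farthest to the left under TSA, and Sox3 lies on opposite sides of 0 in the 2 genotypes.

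Among the transcription factors, Otx2 (chromosome 14, 48658184 to 48662872, mm10, minus strand, 3 exons) opens epiblast enhancers together with Oct4. It stood at 43.3 and 44.3 CPM in WT DMSO and at 28.5 and 26.9 in WT TSA. In TKO cells it stood at 54.5 and 46.5 CPM in DMSO and at 27.1 and 20.0 in TSA. Both TSA groups lay below both DMSO groups without overlap. The log2 fold change under TSA was -0.66 (SE 0.147, adjusted p = 0.00343) in WT and -1.10 (SE 0.148, adjusted p = 0.000103) in TKO. The difference between these effects was -0.44 with a 95% interval of -0.90 to 0.01 (adjusted p = 0.363), so it was not called. TKO against WT was called neither in DMSO (0.21, interval -0.11 to 0.52) nor in TSA (-0.24, interval -0.56 to 0.09).

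Pou3f1 (chromosome 4, 124657646 to 124660655, plus strand, a single exon) encodes the POU factor Oct6, a partner of Otx2 in the formative state. Its values were 37.2 and 37.9 CPM in WT DMSO and 34.2 and 33.2 in WT TSA. They stood at 28.1 and 20.4 CPM in TKO DMSO and at 35.6 and 26.7 in TKO TSA. The group mean of Pou3f1 was lowest in TKO DMSO, where both libraries lay below both WT DMSO libraries. TKO against WT in DMSO was -0.63 on the log2 scale (SE 0.170, adjusted p = 0.0238). That call was lost without WT DMSO replicate 1 (adjusted p = 0.0722), without WT DMSO replicate 2 (0.0582) and without TKO DMSO replicate 2 (-0.42, 0.204). The TSA effect was -0.16 in WT (interval -0.52 to 0.21, adjusted p = 0.451), a value that turned to 0.05 when libraries were scaled by total counts only. In TKO it was 0.36 (interval -0.02 to 0.73, adjusted p = 0.0928), and it was called when scaled by total counts (0.50, adjusted p = 0.0214), by the upper quartile (0.43, 0.0451), without TKO DMSO replicate 1 (0.60, 0.0285) or without TKO TSA replicate 2 (0.55, 0.0295).

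Foxd3 (chromosome 4, 99656299 to 99658671, plus strand, a single exon) is a forkhead factor required to maintain the epiblast and the neural crest. It was at 25.8 and 24.5 CPM in WT DMSO and at 2.75 and 1.97 in WT TSA. In TKO it was at 38.9 and 40.4 CPM in DMSO and at 5.35 and 2.39 in TSA. The DMSO groups did not overlap with the TSA groups, and the residual level under TSA rested on 29 to 79 counts per library. The fall was 10.6-fold in WT (log2 -3.40, SE 0.285, adjusted p = 1.47e-05) and 10.3-fold in TKO (log2 -3.37, SE 0.265, adjusted p = 4.35e-06). The value in TKO was -4.05 without TKO TSA replicate 1 and -2.89 without replicate 2, and it was called in both cases. The interaction was 0.03 with an interval of -0.80 to 0.87 (adjusted p = 0.986), and it was -0.02 with scaling by total counts and -0.04 with the upper quartile.

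In DMSO the Foxd3 libraries of TKO both exceeded those of WT, with a log2 difference of 0.66 (SE 0.223, adjusted p = 0.0598) that narrowly missed the threshold. It was called without a filter on low counts (adjusted p = 0.0206), in a fit of the compared groups only (0.00583) and in DESeq2 (0.0374). It was not called when scaled by total counts or the upper quartile. With a library left out the difference lay between 0.62 and 0.68, while its call varied. In TSA the difference was 0.69 (interval -0.04 to 1.42, adjusted p = 0.173). Without TKO TSA replicate 2, the lower library of that group, it was 1.17 (adjusted p = 0.0174), and without replicate 1, the higher one, it was 0.00818 (adjusted p = 0.994), so this value rests on which of the pair is kept.

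Zic2 (chromosome 14, 122475384 to 122480328, plus strand, 3 exons) encodes a zinc finger factor of epiblast enhancers and the neural plate. It was at 36.8 and 45.1 CPM in WT DMSO and at 2.50 and 2.79 in WT TSA. It was at 41.9 and 43.1 CPM in TKO DMSO and at 8.39 and 7.47 in TKO TSA. The DMSO groups of both genotypes overlapped, whereas under TSA both TKO libraries exceeded both WT libraries. TSA lowered Zic2 15.4-fold in WT (log2 -3.95, SE 0.173, adjusted p = 1.54e-06) and 5.36-fold in TKO (log2 -2.42, SE 0.150, adjusted p = 1.59e-06). Under TSA the level in TKO was 2.99-fold that in WT (log2 1.58, SE 0.188, adjusted p = 0.000355), whereas in DMSO the log2 difference was 0.06 (interval -0.24 to 0.35).

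The weaker fall of Zic2 in TKO gave an interaction of 1.53 (SE 0.232, adjusted p = 0.0182). The adjusted p of the interaction was 0.0631 without WT TSA replicate 1, 0.0552 without TKO DMSO replicate 1 and 0.0881 without TKO DMSO replicate 2, with a value between 1.38 and 1.68 over all libraries left out. Zic5, a paralogue that lies 9725 bases from Zic2 and was listed among other formative genes, was at 17.6 and 20.2 CPM in WT DMSO and at 3.05 and 2.85 in WT TSA. It was at 18.9 and 17.7 CPM in TKO DMSO and at 6.43 and 5.97 in TKO TSA. The order of the groups was thus the same for Zic2 and Zic5 under TSA, with TKO above WT and no overlap. The log2 change of Zic5 under TSA was -2.67 in WT (adjusted p = 5.46e-06) and -1.56 in TKO (adjusted p = 2.26e-05), and TKO against WT in TSA was 1.06 (adjusted p = 0.00384). Its interaction of 1.11 (SE 0.247, interval 0.57 to 1.65) was not called, at an adjusted p of 0.0576.

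Sox3 (chromosome X, 60891366 to 60893430, minus strand, a single exon) is a SoxB1 factor of the epiblast and neural progenitors and a paralogue of Sox2. It was at 2.78 and 3.00 CPM in WT DMSO and at 1.10 and 1.70 in WT TSA. It was at 3.63 and 2.69 CPM in TKO DMSO and at 7.78 and 12.1 in TKO TSA. TSA thus took Sox3 below all DMSO libraries in WT and above all of them in TKO. These levels rested on 37 to 53 counts per library in DMSO, 18 and 25 in WT TSA, and 115 and 192 in TKO TSA. The rise in TKO was 3.13-fold (log2 1.65, SE 0.287, adjusted p = 0.000574). The fall in WT was 2.07-fold (log2 -1.05, SE 0.355, adjusted p = 0.0276).

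Under TSA, Sox3 was 7.12-fold higher in TKO than in WT (log2 2.83, SE 0.317, adjusted p = 0.000256), and it was 3.43-fold higher in TKO TSA than in WT DMSO (adjusted p = 0.000339). In DMSO the genotypes overlapped (log2 0.13, interval -0.57 to 0.84). The interaction was 2.70 (SE 0.456, interval 1.70 to 3.70, adjusted p = 0.0262). The fall in WT was the less firm of these results: it was not called with scaling by total counts (-0.85, adjusted p = 0.0693) or the upper quartile (-0.90, 0.0555), without WT DMSO replicate 1 (0.0659), without WT DMSO replicate 2 (0.0833) or without WT TSA replicate 1 (-0.77, 0.164). The interaction stayed between 2.35 and 3.03 over all libraries left out, and its adjusted p was 0.0604 without WT DMSO replicate 1, 0.0764 without WT TSA replicate 1, 0.0551 without TKO DMSO replicate 1, 0.134 without TKO DMSO replicate 2 and 0.0691 without TKO TSA replicate 2. Sox2, the paralogue that serves core pluripotency, was at 359 and 436 CPM in DMSO and 311 and 329 in TSA in WT cells. In TKO cells it was at 476 and 485 CPM in DMSO and 404 and 316 in TSA. Sox1, the third SoxB1 gene and an early neural marker, moved otherwise: it fell under TSA in both genotypes (log2 -1.35 in WT and -1.76 in TKO) and was higher in TKO than in WT in DMSO (log2 2.20, adjusted p = 0.000398).

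**Figure D3:**
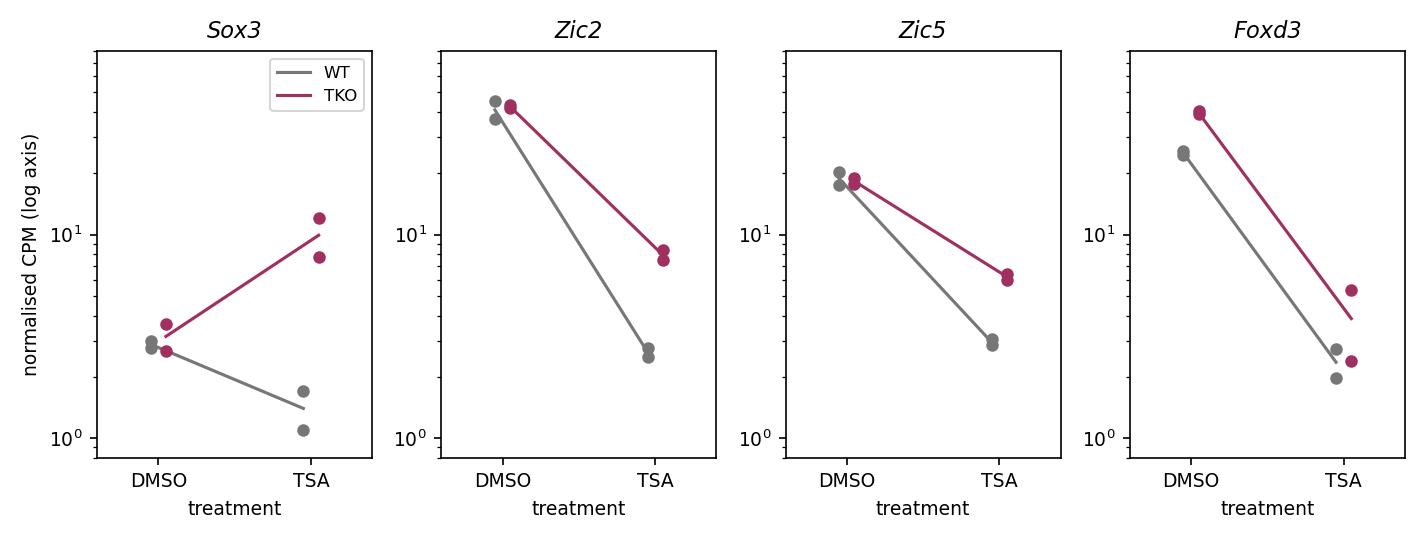
Normalised CPM (vertical axis, log scale) of Sox3, Zic2, Zic5 and Foxd3 in DMSO and TSA, with WT in grey and TKO in red; points are libraries and lines join the group means. The lines run in opposite directions for Sox3, diverge for Zic2 and Zic5, and run nearly parallel for Foxd3.

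Utf1 (chromosome 7, 139943856 to 139945112, plus strand, 2 exons) encodes a chromatin-bound protein that is lost early in differentiation and buffers bivalent genes. It was at 64.8 and 48.0 CPM in WT DMSO and at 23.8 and 22.2 in WT TSA. It was at 44.5 and 41.7 CPM in TKO DMSO and at 24.2 and 21.0 in TKO TSA. Both TSA groups overlapped, between 21.0 and 24.2 CPM, and lay below the DMSO groups. The log2 fold change under TSA was -1.30 in WT (SE 0.150, adjusted p = 7.16e-05) and -0.93 in TKO (SE 0.151, adjusted p = 0.000355). In DMSO, TKO lay below WT without overlap (-0.39, interval -0.71 to -0.07), but the adjusted p was 0.0824. With a library left out this difference ranged from -0.59 (without WT DMSO replicate 2) to -0.17, and its call varied too.

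Lin28a (chromosome 4, 134003330 to 134018816, minus strand, 4 exons) was at 834 and 692 CPM in WT DMSO and at 398 and 322 in WT TSA. In TKO it was at 672 and 514 CPM in DMSO and at 332 and 279 in TSA. The TSA groups lay below the DMSO groups, with a change of -1.08 on the log2 scale in WT (SE 0.153, adjusted p = 0.000219) and -0.96 in TKO (SE 0.153, adjusted p = 0.000323). Between the genotypes in DMSO, the TKO libraries of Lin28a lay below those of WT, with a log2 difference of -0.36 (interval -0.70 to -0.03) that was not called (adjusted p = 0.117). In TSA the groups overlapped, with a difference of -0.24 (interval -0.57 to 0.10, adjusted p = 0.306). Lin28b (chromosome 10, 45376619 to 45470201, minus strand, 5 exons), the second mammalian Lin28 gene, was at 196 and 212 CPM in WT DMSO and at 107 and 95.01 in WT TSA. It was at 200 and 160 CPM in TKO DMSO and at 110 and 89.7 in TKO TSA. Its log2 change was -1.01 in WT (SE 0.133, adjusted p = 0.000138) and -0.85 in TKO (SE 0.133, adjusted p = 0.000278). Both paralogues thus fell in both genotypes, and neither interaction was called (0.13, interval -0.35 to 0.60 for Lin28a, and 0.16, interval -0.25 to 0.57 for Lin28b).

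Lin28 proteins bind the GGAG element in the loop of let-7 precursors, which leads to their uridylation and decay, and the let-7 seed in turn targets Lin28 transcripts. The mature sequences of the most counted let-7 hairpins are shown with the seed, bases 2 to 8, in capitals, since this shared seed is what the Lin28 block withholds from its targets.
mmu-let-7a-5p: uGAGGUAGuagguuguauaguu
mmu-let-7d-5p: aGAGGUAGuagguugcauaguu
mmu-let-7f-5p: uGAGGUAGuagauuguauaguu
The 5p sequences of all 10 let-7 hairpin genes with such an entry in RefSeq (build GRCm38.p6) share this seed, and some of these genes give the same mature sequence. The hairpins of 2 of these genes follow, with the GGAG between the mature arms in capitals, which 9 of 11 listed let-7 hairpins have.
Mirlet7d, chr13:48536012-48536114, minus strand: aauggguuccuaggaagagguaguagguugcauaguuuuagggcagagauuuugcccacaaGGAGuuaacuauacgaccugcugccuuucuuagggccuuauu
Mirlet7f-1, chr13:48537829-48537917, minus strand: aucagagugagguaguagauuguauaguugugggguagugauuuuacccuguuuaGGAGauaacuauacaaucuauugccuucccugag
The count table lists 11 let-7 hairpin genes, which were looked at after the values of Lin28 had been seen. Reads there are long-RNA fragments of hairpins or primary transcripts and are no measure of mature let-7. Their counts added up to 119 and 134 in WT DMSO, 84 and 98 in WT TSA, and in TKO cells to 161 and 140 with DMSO against 95 and 89 with TSA. Only Mirlet7a-1, Mirlet7d and Mirlet7f-1, neighbours on chromosome 13, passed the filter. Mirlet7d was called lower under TSA in WT (log2 -0.71, adjusted p = 0.0467) and in TKO (-0.70, adjusted p = 0.0465). Mirlet7f-1 was called lower in TKO (-1.31, adjusted p = 0.00893) and not in WT (-0.74, 0.103). Mirlet7a-1 was called in neither (-0.70, 0.134 in WT and -0.61, 0.144 in TKO). A relation of these reads to the levels of Lin28a and Lin28b was not tested.

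Of 10 partners and targets in the Lin28 and let-7 axis, 2 were called higher and 3 lower under TSA in WT (median -0.08), and 4 higher and 3 lower in TKO (median -0.11). Those counts lay near the shares of all tested genes, 27.0% higher and 25.9% lower in WT and 30.8% and 27.9% in TKO. Igf2bp1 and Igf2bp3, oncofetal RNA-binding proteins and let-7 targets, fell in both genotypes (log2 -0.75 and -0.95 in WT, -0.77 and -0.92 in TKO). Mycn, a growth-promoting let-7 target, fell too (-0.59 in WT and -1.17 in TKO). Zcchc11, a terminal uridylyl transferase that tails let-7 precursors held by Lin28, rose by 0.52 and 0.87, and Arid3a rose by 0.70 and 0.52. Hmga2, a chromatin protein and let-7 target, was called higher under TSA in TKO (1.03, adjusted p = 0.0103) and had a value of -0.03 in WT, and in DMSO it was lower in TKO than in WT (-2.00, adjusted p = 0.000782). In DMSO it was the only gene of this list called (0 higher, 1 lower), against 9.63% and 10.7% of all genes. In TSA, TKO against WT gave 1 higher (Igf2bp2, 0.65) and 3 lower (Hmga2 -0.94, Mycn -0.82 and Arid3a -0.43). Of all genes, 10.0% were higher and 8.38% lower there.

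Fgf5 (chromosome 5, 98254184 to 98277030, plus strand, 3 exons) was counted at a low level in every library. It was at 4.92 and 2.27 CPM in WT DMSO and at 1.40 and 3.19 in WT TSA. It was at 2.53 and 1.02 CPM in TKO DMSO and at 1.69 and 2.95 in TKO TSA, which rested on 14 to 69 counts per library. All 4 groups overlapped, and the replicates of a group differed by up to 2.49-fold. No contrast was called, and the intervals were wide: -1.79 to 0.45 for TSA in WT, -0.82 to 1.58 for TSA in TKO, and -2.18 to 0.15 for TKO against WT in DMSO.

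The receptors through which Fgf ligands act were described beside Fgf5. Of 4 receptor genes, 2 were called higher under TSA in WT and 3 in TKO, and 0 lower, with medians of 0.92 and 1.37. Of all tested genes, 27.0% were called higher and 25.9% lower in WT, and 30.8% and 27.9% in TKO. Fgfr2 was at 28.7 and 31.0 CPM in WT DMSO, 49.4 and 55.7 in WT TSA. In TKO it was at 23.0 and 22.6 CPM with DMSO and at 80.3 and 107 with TSA. TSA raised it in both genotypes and more in TKO, with an interaction of 1.22 (adjusted p = 0.0260). Fgfr3 rose by 1.26 in WT and by 1.76 in TKO, and Fgfr1, the main receptor of the primed state, rose by 0.69 in TKO with a value of 0.26 in WT (adjusted p = 0.0958). In DMSO Fgfr1 was lower in TKO than in WT (-0.42, adjusted p = 0.0366). Fgf4, the paralogous ligand that drives exit from the naive state, fell under TSA (log2 -2.75 in WT, adjusted p = 8.23e-06, and -2.30 in TKO, adjusted p = 5.59e-06).

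Other genes of the formative and primed states did not move as one group. Of 20 such genes, 4 were called higher and 8 lower under TSA in WT (median -0.29), and 6 higher and 8 lower in TKO (median -0.08). The shares of all tested genes were 27.0% higher and 25.9% lower in WT, and 30.8% and 27.9% in TKO. With Dnmt3a and Dnmt3b, formative genes that can be counted only where they are intact, WT gave 4 higher and 10 lower of 22. The steepest falls in WT were those of Zic5, Fgf15 (-2.35), an epiblast ligand, and Sall2 (-1.63), a zinc finger factor, and in TKO those of Fgf15 (-3.50), Zic5 and Lef1 (-1.30), a Wnt effector. Krt18, an epithelial keratin, rose by 1.12 in WT and by 1.16 in TKO, Cldn6, a tight junction protein, by 0.65 and 1.38, Grhl2, an epithelial pioneer factor of formative enhancers, by 0.69 in WT, and Wnt8a by 1.77 in TKO.

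Between the genotypes in DMSO, 1 of these 20 was called higher (Etv5, 0.42) and 10 lower, with a median of -0.40 beside -0.01 over all genes. The shares of all genes were 9.63% higher and 10.7% lower. The largest differences were Krt18 (-3.15), Wnt8a (-1.48) and Pim2 (-1.32). In TSA, 1 was higher (Zic5) and 5 lower, against 10.0% and 8.38% of all genes. Among the lower were Krt18 (-3.11), Fgf15 (-0.999) and Spry4 (-0.75). Spry4, a feedback inhibitor of FGF signalling, was the only one of the 20 with a called interaction (-1.03). TKO TSA against WT DMSO gave 1 higher (Grhl2, 0.50) and 12 lower of the 20, against 31.7% and 30.2% of all genes. The median was -0.63, with Fgf15 (-3.35), Krt18 (-1.99) and Sall2 (-1.86) farthest. Beside these differences, the summed level of 6 fibroblast and mesenchymal markers (Col1a1, Col1a2, Col3a1, Thy1, Acta2, Tagln) was 230 to 456 CPM in WT DMSO, 277 to 484 in WT TSA, but 16.9 to 31.1 in TKO with DMSO and 34.7 to 41.4 in TKO with TSA. In WT DMSO most of this sum was Tagln, at 351 and 153 CPM. In DMSO 5 of the 6 were called lower in TKO and 0 higher, against 10.7% and 9.63% of all genes. Thy1 overlapped between the genotypes there, at 3.35 and 5.59 CPM in WT and 3.63 and 3.35 in TKO. TKO TSA against WT DMSO gave 4 of the 6 lower and Thy1 higher (1.29). None of the 6 was at 0 in a group, and the part of these cells or transcripts in the differences was not tested.

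Most naive state genes were called lower under TSA. Of 13, 11 were called lower and 1 higher in WT (median -1.13), and 10 lower and 1 higher in TKO (median -1.32). Over all tested genes, 25.9% were lower and 27.0% higher in WT, and 27.9% and 30.8% in TKO. Nr0b1 (-2.10), Esrrb (-1.49) and Tbx3 (-1.48) fell most in WT, and Prdm14 (-2.90), Tbx3 (-2.28) and Tcl1 (-1.96) in TKO, whereas Dppa3, a maternal and germline factor, rose in both (1.498 and 2.04). Pou5f1, which encodes Oct4 of the core network, fell as well (-1.16 and -1.43). Between the genotypes in DMSO, 7 of the 13 were called higher in TKO and 0 lower (median 0.66), led by Tbx3 (1.18), Prdm14 (1.09) and Tcl1 (0.84). Over all genes, 9.63% were higher and 10.7% lower. In TSA, 6 were higher and 0 lower, led by Nr0b1 (1.71), against 10.0% and 8.38% of all genes.

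**Figure D4:**
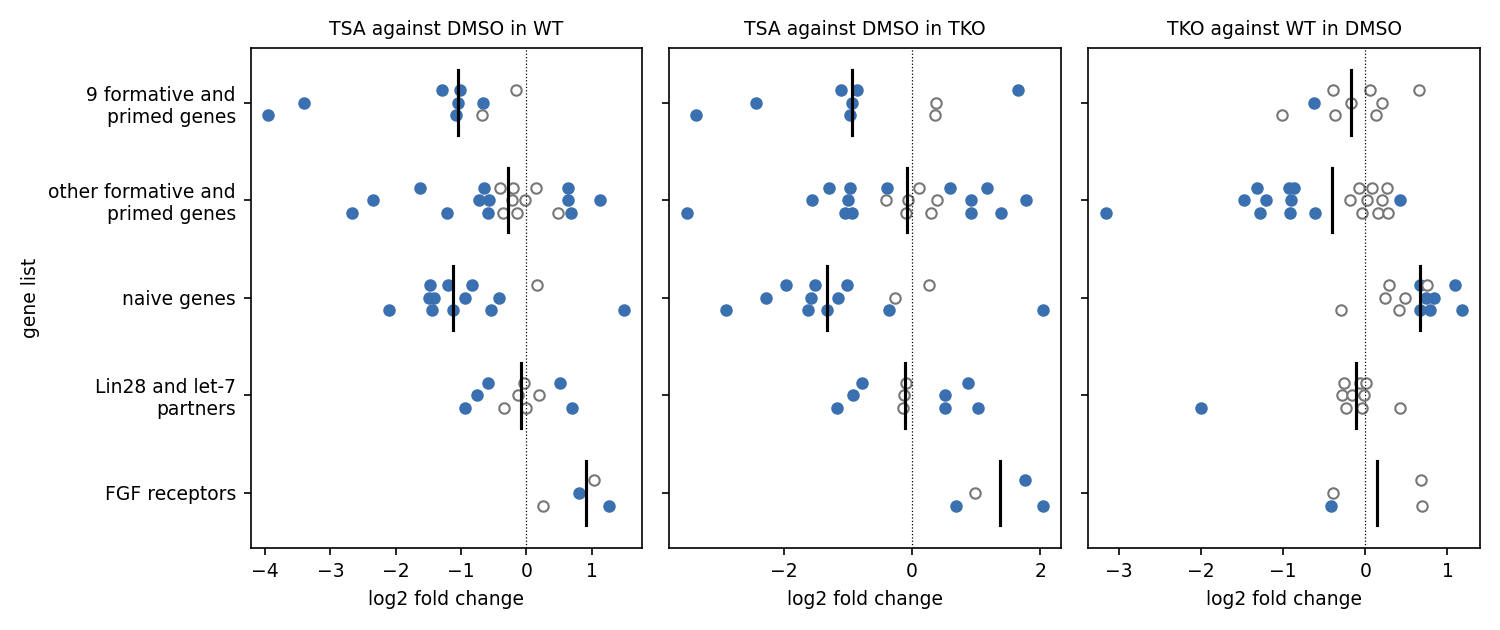
Log2 fold changes (horizontal axes) of the 9 genes and of 4 other lists for TSA in WT, TSA in TKO and TKO against WT in DMSO; each point is a gene, filled where the adjusted p was below 0.05, and bars are list medians. Under TSA the medians of the 9 genes (-1.05 and -0.93) and of the naive genes (-1.13 and -1.32) lie below 0, while in TKO against WT the naive median is 0.66 and that of the other formative genes is -0.40.

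Several of the 9 genes are also used as neural or neural crest markers, so the lists of these cell types were read beside them. The summed level of 7 neural markers was 342 to 424 CPM in WT DMSO, 178 to 211 in WT TSA, 300 to 331 in TKO with DMSO and 164 to 171 in TKO with TSA, and none was at 0 in a group. Pax6, an eye and neural tube factor, fell under TSA (-3.11 in WT and -2.38 in TKO), as did Tubb3, a neuronal tubulin, in TKO (-1.72). The 4 neural crest markers Sox10, Tfap2a, Snai2 and Pax3 summed to 1.62 to 2.07 CPM in WT DMSO, 5.68 to 6.39 in WT TSA, 2.19 to 2.47 in TKO with DMSO, where Pax3 was at 0, and 3.99 to 6.28 in TKO with TSA. Of these 4, Snai2 (log2 2.52), Pax3 (2.13) and Sox10 (1.94) were called higher under TSA in WT, at a few CPM, and 0 lower. These 3 genes rested on 1 to 8 counts per library in WT DMSO. In TKO, Pax3 and Snai2 were called higher and 0 lower. The shares of all genes were 27.0% higher and 25.9% lower in WT, and 30.8% and 27.9% in TKO. Foxd3 was called lower in both genotypes, and the part of neural crest cells was not tested.

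The paralogues of the 9 genes were mostly silent: 9 of 16 passed the filter. In WT under TSA, Pou3f4 (2.16) and Pou3f2 (1.97) were called higher, both at 1.43 CPM or less in the WT libraries, and Fgf4, Zic5 and Sox1 lower. In TKO, 1 was called higher (Otx1, 2.71) and 5 lower. Over all tested genes, TSA gave 27.0% higher and 25.9% lower in WT, and 30.8% and 27.9% in TKO. In DMSO Sox1 (2.20) and Fgf4 (0.60) were higher in TKO than in WT. In TSA, Otx1 (2.36), Sox1 (1.79), Zic5 (1.06) and Fgf4 (1.05) were higher. Otx1 did not exceed 1.63 CPM in a library, far from the level of Otx2.

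Over the 8 libraries the log2 levels of Otx2, Zic2, Foxd3, Lin28a, Lin28b and Utf1 ran in parallel, with Pearson correlations of 0.814 (Zic2 and Lin28a) to 0.974 (Lin28a and Utf1). This describes libraries of 4 groups that differ mainly by TSA, and no test was attached. Among all genes of at least 5 CPM, Zic5 had the pattern most like that of Zic2 (r = 0.998), followed by Rnf34 (0.992). The closest to Foxd3 were Cbr3 (0.997) and Hist1h1c (0.996), to Otx2 Crnkl1 (0.995) and Gid8 (0.994), and to Utf1 Sf3b2 (0.999) and Ctbp1 (0.996). Lin28a was closest to Snrnp40 and Mbd3 (both 0.997), and Lin28b to Rrp15 and Nap1l1 (both 0.997). Sox3 was closest to Mgat2 (0.981) and Slc16a6 (0.976), Pou3f1 to Tceal8 (0.968) and Gnai3 (0.944), and Fgf5, whose values scattered within groups, reached only 0.882 with Cnnm3 and 0.881 with Rexo4.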

How the data were processed

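RNA was ribosome-depleted, made into directional libraries and sequenced as 51-base pairs, per the labels' protocols. The authors deposited raw read counts per gene and summed exon lengths in bases. TopHat2 2.0.13, featureCounts 1.4.5-p1, edgeR 3.22.3 and mm10 are named in the submitters' processing notes, and the annotation, strand setting and handling of multi-mapping reads are not given in the sources used here. No exon of another listed gene overlaps exons of the 9 genes.

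Counts were tested here with edgeR 4.0.16 in R 4.3.3 (filterByExpr, TMM, 1 mean per group, all 8 libraries, 4 residual degrees of freedom, two-sided), and with DESeq2 1.42.0 as an alternative. Standard errors and 95% intervals derive from the fold change and its F statistic and are approximate. The steps were tested on simulated data. Replicates of a group differed beyond sampling noise (chi-square per degree of freedom 5.28 to 12.2). Exact permutation of 2 against 2 libraries cannot go below p = 0.333.

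Members and lists were chosen with earlier results of these data known. Named were all members, at most 3 genes higher and 3 lower per list and contrast, and the 2 genes most correlated with each member over log2(CPM + 0.5). The other 118 samples were not analysed here, and 1 gene of the lists is not reported here.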

Additional observations from a re-analysis of the deposited data

Results flagged for a closer look

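For 11 genes of the lists, a test of the difference itself found that the TSA effect differed between the genotypes (edgeR's quasi-likelihood test of the interaction with Benjamini-Hochberg adjustment). Over all tested genes, 0.879% were called in the positive direction and 0.468% in the negative. Called were 2 of the 9 genes, 1 of 20 other formative genes, 1 of 13 naive genes and 1 of 4 FGF receptors. So was 1 of 3 deleted genes. Among markers the counts were 1 of 8 for stem cells, 1 of 7 neural, 1 of 6 streak and 2 of 6 fibroblast. Of 10 Lin28 and let-7 axis genes, 9 tested paralogues, 3 core pluripotency genes, 4 neural crest and 6 endoderm markers, 0 were called. How the calls depended on the processing is given below. On the log2 scale, as the effect in TKO minus that in WT, Sox3 (2.70) and Zic2 (1.53) are described above. Fgfr2 (1.22), the endodermal and streak factor Eomes (2.79) and the neural intermediate filament Nes (1.44) were likewise positive. Spry4 (-1.03), the naive factor Prdm14 (-1.47) and the Nodal coreceptor Tdgf1 (-1.63) were negative. Dnmt3b (1.33) is a deleted gene whose residual reads in TKO rose while the intact gene fell in WT. The collagens Col1a1 (3.05) and Col3a1 (4.41) rose in TKO from a low level, and neither TKO DMSO library held more than 3 counts of Col3a1, so that its value depends on the prior count.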

How the results depend on the processing

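Of 801 alternative values for the 9 genes, 744 kept direction and call, 16 lost a call, 17 gained one and 24 changed sign. Sign changes outside the libraries left out were Pou3f1 for TSA in WT with total counts (0.0488), Fgf5 for TKO against WT in TSA with total counts (-0.00021) and upper quartile (-0.00814), and the Foxd3 interaction with total counts (-0.0230) and upper quartile (-0.0408). With 1 library left out, where the lone sample is assumed to vary like the other groups, the ranges that included a sign change were -1.37 to 0.00233 (Fgf5, TSA in WT), -0.12 to 1.18 (Fgf5, TSA in TKO), -0.10 to 0.33 (Sox3) and -0.10 to 0.21 (Zic2) for TKO against WT in DMSO, -0.45 to 0.73 (Fgf5), -0.34 to 0.0799 (Pou3f1), -0.17 to 0.13 (Lin28b) and -0.13 to 0.0768 (Utf1) for TKO against WT in TSA, -1.10 to 0.0301 (Fgf5, TKO TSA against WT DMSO), and -0.65 to 0.51 (Foxd3) and -0.0553 to 0.33 (Lin28a) for the interaction.

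For TSA in TKO, members called higher were 2 with total counts, with the upper quartile and with the replicate block, and 1 to 2 with a library left out. For TKO against WT in DMSO, 1 member was called higher without the filter, with the replicate block, in the compared groups only and in DESeq2 (0 to 1 with a library left out). With the replicate block, 3 were called lower there (Pou3f1, Lin28a and Utf1; 0 to 1 with a library left out) and 1 was called lower in TSA (Lin28a). Of all tested genes, 1458 to 3330 were called for TKO against WT in DMSO and 941 to 3443 in TSA with a library left out. For the interaction, 488 were called without the filter, 633 with the replicate block, 401 in DESeq2 and 10 to 410 with a library left out, and members called higher were 0 to 2. Replicate numbers are shared between groups, but with only 2 numbers and correlations of same-numbered deviations of 0.0586 to 0.366 they are not shown to pair the libraries. The cause of each change was not tested.

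Scaling by total counts moved the median of all genes from 0.01 to 0.22 for TSA in WT (5812 higher and 2433 lower calls against 4266 and 4092), the upper quartile to 0.16 (5365 and 2794). For TSA in TKO total counts moved it from 0.04 to 0.19 (5908 and 3267 against 4872 and 4412) and the upper quartile to 0.11. For TKO TSA against WT DMSO total counts moved it from 0.00 to 0.17 (6064 and 3542 against 5015 and 4778) and the upper quartile to 0.11. For the interaction the upper quartile gave 96 higher and 85 lower against 139 and 74. Fgf5 rested on 14 to 69 counts per library and Sox3 on 18 to 192, and the part of depth in their spread was not tested.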

Other observations

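Some early lineage markers outside the formative lists were called. Under TSA in WT, 1 of 6 endoderm markers was called higher, and 2 of 6 tested streak and mesoderm markers were called higher and 1 lower. The shares of all tested genes there were 27.0% higher and 25.9% lower. In TKO, TSA gave 1 endoderm marker higher, and 3 streak and mesoderm markers higher and 1 lower. Of all tested genes, 30.8% were higher and 27.9% lower in TKO. Hand1, a mesoderm and trophoblast factor, was at 0.999 and 0.729 CPM in WT DMSO and at 16.3 and 24.2 in WT TSA. In TKO cells it was at 1.16 and 1.46 CPM with DMSO and at 24.9 and 34.9 with TSA, and the rise was called in both (log2 4.52 and 4.51). Sox17, an endoderm factor, rose by 2.71 in WT and by 2.00 in TKO under TSA, to 2.44 and 4.15 CPM and to 13.5 and 13.8 CPM. Between the genotypes in DMSO, 2 of 6 tested streak and mesoderm markers were called lower in TKO (T and Eomes). As many were called higher (Gsc, 1.94, and Kdr, 0.79). Of 6 endoderm markers, 4 were called higher in TKO and 0 lower. Over all tested genes, 9.63% were higher and 10.7% lower there. T (Brachyury), the primitive streak factor, was at 12.8 and 6.57 CPM in WT DMSO. It was at 0.274 and 0.509 CPM in TKO DMSO, a log2 difference of -4.62. Eomes was at 9.35 and 6.32 CPM in WT DMSO, 6.05 and 5.03 in WT TSA. In TKO cells it was at 2.39 and 2.84 CPM with DMSO and 12.4 and 13.1 with TSA.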
